A study of Mus musculus with 6 samples.

Results

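The 3 arrays that carried RNA of granulosa cell tumors from mice mutant for Smad1, Smad5 and Smad8 were described on their own: which transcripts gave the brightest signals, which ovarian genes these tumors still showed, and how far the tumors differed from each other. They were chosen by their labels and make up 3 of the 6 arrays of the study. The design text describes them as independent tumors, and the labels state that they were untreated, were kept overnight in an RNA storage solution and were then frozen before RNA extraction. How the 3 genes were mutated, and the strain, age and sex of these mice, are not given in the labels. The other 3 arrays hold wild-type granulosa cells, collected 44 to 46 hours after an injection of PMSG (a gonadotropin that stimulates follicles) from C57BL/6J;129S5/SvEvBrd females aged 21 days and pooled from 2 to 3 females. They served to show how far the same probe sets vary in another tissue sample, and their levels are quoted for a few genes and lists. Those quoted are not a full account of the genes whose levels differ, and no gene was tested against them.

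Granulosa cells line the ovarian follicle around the oocyte; they nurse the oocyte, make inhibin and turn androgens into estrogens. Smad1, Smad5 and Smad8 (the protein of Smad9) are the transcription factors that carry signals of bone morphogenetic proteins and of anti-Müllerian hormone from the cell surface to the nucleus. A solid tumor holds vessels, connective tissue, fat and leukocytes beside the tumor cells, and an array reads their RNA together, so a larger number of cells of one type and more RNA per cell cannot be told apart in these data.

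A signal is the brightness of a probe set on a linear scale, and each array had been set to a trimmed mean of 500. Values in the order tumor 1, tumor 2, tumor 3 are given throughout, and the range of a gene is its highest minus its lowest log2(signal + 32) over the 3 tumors, so that a range of 1 is a 2-fold and a range of 2 a 4-fold difference at bright signals. Ranges of dim genes are compressed by the added 32. Between 22599 and 23695 of the 45101 probe sets had a signal of at least 100 on a tumor array, against 22923 to 25049 on the wild-type arrays; bacterial control probe sets with no transcript added reached 101 at most. The ratio of 3' to 5' signal for Actb, by which RNA integrity is judged, was 0.57, 0.89 and 0.97 on the log2 scale in the tumors. The same ratio for Gapdh was -0.47, -0.24 and -0.38. The added hybridisation controls averaged 11.86, 12.48 and 12.71, and tumor 1 was lowest in each of these measures. Because the tumors form a single group with no labelled subdivision, no difference between them has replicates, and all statements below are descriptions without a test.

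The brightest signals came from the protein synthesis machinery. Of the 30 genes with the highest mean log2 signal, 23 encode ribosomal proteins, led by Rps29 with signals of 45269, 55079.7 and 59790.0. The 7 others were Eef1a1 (rank 3), Tpt1 (10), Akr1cl (13), the mitochondrial gene ND5 (18), Tsc22d1 (22), Inha (28) and Gja1 (29). Eef1a1, which delivers aminoacyl-tRNA to the ribosome, had 38388, 46798 and 49005. Probe sets bind with different efficiency, so these ranks order signals and not numbers of transcripts, and 13 of the 30 probe sets are of a type that can cross-hybridise with related sequences. Akr1cl, an aldo-keto reductase, had signals of 36541, 41347 and 43369.7 and was bright in every tumor; its other probe set that reached 500 did not have the same highest tumor.

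**Figure D1:**
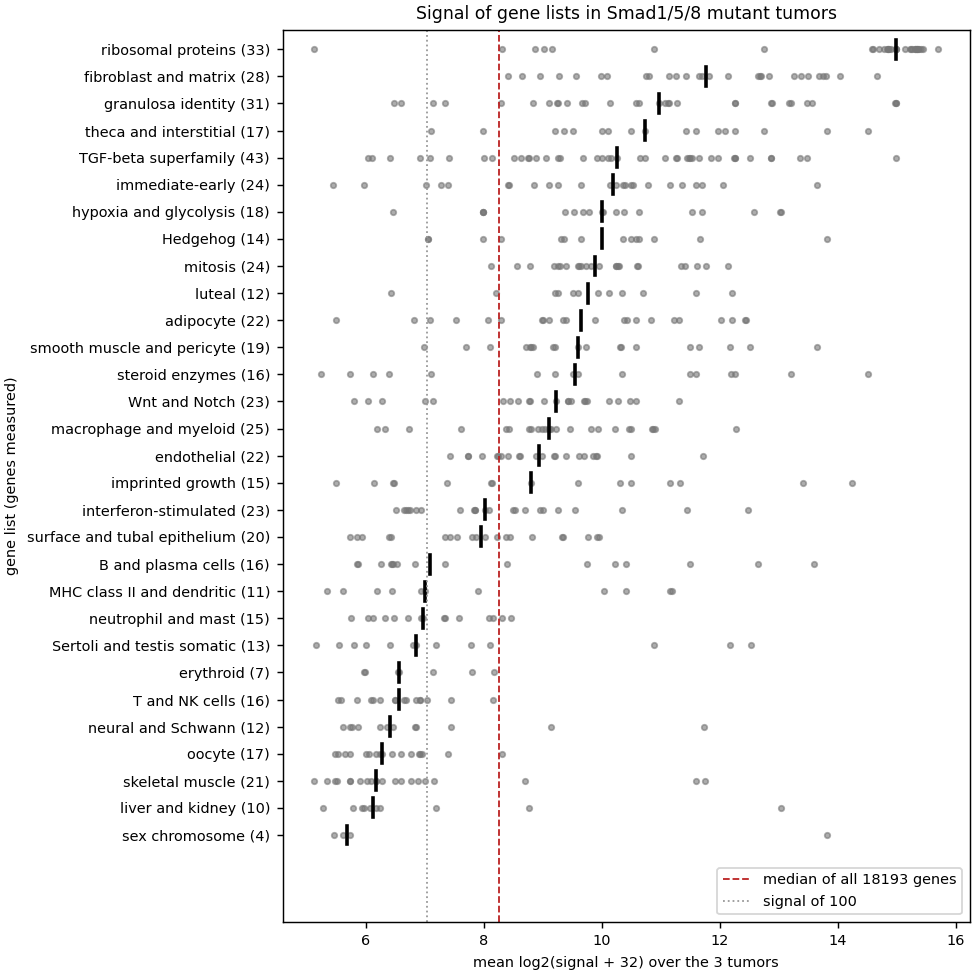
Mean log2(signal + 32) over the 3 tumors (horizontal axis) of every measured gene of 30 lists (rows, number of genes in brackets); grey points are genes, black bars the list medians, the red dashed line the median of all 18193 genes and the dotted line a signal of 100. Ribosomal proteins lie highest, fibroblast and granulosa lists lie well above the median of all genes, and the medians of the oocyte and skeletal muscle lists lie to the left of the dotted line.

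Several genes that encode no ribosomal protein followed in the ranks after 30. Slc18a2, the vesicular monoamine transporter, ranked 32 with 27834, 36468 and 31673, a mean of 31992 ± 4326 (SD, n = 3). Kctd14 ranked 35 with 22396, 34191 and 38558. The secreted chaperone gene Clu had 22317, 31405 and 40296, the actin bundling gene Fscn1 23885, 31673 and 25096 and Cnmd, which encodes chondromodulin, 25565, 22343 and 31899. Apart from Clu and Kctd14, whose lowest signal was in tumor 1, these genes stayed within a range of 0.6. Hsd3b1, the dehydrogenase that forms progesterone and androstenedione, ranked 62 but differed more: 23371, 12509.9 and 43115, a range of 1.78 with tumor 3 highest. In all, 534 of 18193 genes (2.94%) had at least 5000 on all 3 tumors and 6503 (35.7%) had at least 500.

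The 5 steadiest bright genes were picked for the smallest ranges among 534 genes, so their closeness is set by that choice. Among genes with at least 5000 on every tumor, the ubiquitin ligase gene Nedd4 had the smallest range, with 18864, 19063 and 18789. Lamp2, a lysosomal membrane protein, had 5784, 5758 and 5700.4. The galectin gene Lgals1 had 13711, 13919.8 and 13718, Zfand5 5928, 6075 and 5966 and the kinase gene Wnk1 6621, 6541 and 6445. On these probe sets, all 5 differed by less than 0.05 on the log2 scale between the highest and the lowest tumor. Other probe sets at 500 or more varied more. Their ranges were 0.20 to 0.33 for Nedd4, 0.18 to 0.67 for Lamp2, 0.15 to 0.27 for Zfand5 and 0.12 for Lgals1. Wnk1 had no other such probe set.

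Many genes of granulosa cells were bright in the tumors. Of 31 measured genes of a granulosa list, 27 had at least 100 on all 3 tumors, where 58% of all genes did, 20 had at least 500 (35.7% of all genes) and 9 at least 5000 (2.94%). The median member lay in the top 12.9% of genes by signal. Inha, the alpha subunit of inhibin, had 35108, 32166 and 29873, a mean of 32382 ± 2624 (SD, n = 3). The gap junction gene Gja1, which couples granulosa cells, had 28509, 35578 and 33148. Foxl2, the transcription factor that keeps granulosa cells from turning to a testicular fate, had 8633, 7565 and 6439, a range of 0.42; its other probe set that reached 500 had the same highest and lowest tumor and a range of 1.02. All 3 tumors thus lay above 5000 for each of these genes.

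Beside these and Slc18a2, the members above 5000 were a nuclear receptor, a ligand trap, an enzyme, a growth factor and a receptor. The nuclear receptor gene Nr5a2 had 14319.5, 14825 and 8271, and Fst, whose product follistatin binds activins, had 12249, 13439 and 8912. Both were lowest in tumor 3 on these probe sets. Of the other probe sets at 500 or more, 1 of 2 for Nr5a2 and 1 of 1 for Fst also had tumor 3 lowest. Hsd17b1, which makes estradiol from estrone, had 10178, 9088 and 8849. Kitl, the Kit ligand by which granulosa cells address the oocyte, was highest in tumor 3 with 8095, 5610.0 and 17014. Amhr2, the receptor for anti-Müllerian hormone, had 7527, 6459 and 8366, and the hormone itself, Amh, had 2979.7, 2209 and 2190.4. The zinc finger gene Gata4 had 1903, 1730.4 and 2288 and the Wilms tumor gene Wt1 2691, 1769 and 2306, so these factors varied by less than a range of 1.

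Other granulosa genes were dim or uneven. Fshr, the receptor for follicle stimulating hormone, had 1033, 721 and 248, with tumor 3 lowest (range 1.93). Ihh, a Hedgehog ligand of granulosa cells, had 744, 280.0 and 96.5, a range of 2.59. Inhba, the beta A subunit shared by inhibin A and activin A, went the other way with 273, 548 and 1241, a range of 2.06; the wild-type pools lay between 20087 and 30806. Inhbb, the beta B subunit, had 1710.4, 2436 and 2272, where the wild-type pools lay between 30472 and 37533. Rspo1, which amplifies Wnt signalling, had 905, 321 and 1737, a range of 2.33 with tumor 2 lowest. Ihh, Inhba and Rspo1 were the 3 granulosa members with a range of at least 2, where 0.907% of all genes had one; without tumor 3 there were 0 and without tumor 1 there was 1 (range over the remaining pair). Runx1 (1153, 293 and 773), Esr2 (3569.9, 2140.3 and 1363) and Nr0b1 (377, 259 and 771) also had ranges between 1 and 2. The natriuretic peptide gene Nppc had 144, 100.4 and 154, and the wild-type pools lay between 3424 and 4099.

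The markers used for Sertoli cells, the male counterpart of granulosa cells, gave low signals except for Dhh. Sox9, the factor that directs Sertoli cell fate, had 154, 232 and 189, and Dmrt1 had 6.31, 10.3 and 32.1. Tsx had 3.23, 5.34 and 2.73 and Cldn11 85.3, 35 and 144. Of 13 measured genes of a Sertoli and testis list, 4 lay below 100 on all 3 tumors, a share near the 31.5% of all genes. At 500 or more on all of them were 3 (35.7% of all genes). Those 3 were Ptgds, a prostaglandin D synthase, with 7279, 5337 and 5102, the neurotrophic factor gene Gdnf with 3434, 4700.4 and 5986 and Dhh with 1917, 1471 and 2237. Xist, the RNA that coats the inactive X chromosome, had 12727, 14302 and 16032, while the Y-linked genes Uty, Kdm5d and Eif2s3y stayed below 100 on every tumor.

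In the steroid and luteal lists, tumor 3 stood apart in several genes. Cyp11a1, the enzyme that starts steroid synthesis from cholesterol, had 298, 247 and 2182, a range of 2.99. Akr1c18, which inactivates progesterone, had 1522, 155 and 7507, a range of 5.33. Both were highest in tumor 3, and Akr1c18 was lowest in tumor 2. The lipoprotein receptor gene Scarb1 (2305, 2417 and 5180.3) and Hsd17b7 (512, 638 and 1229) were also highest in tumor 3. Tumor 3 lay at least 2-fold above both others in 3 of 16 steroid enzyme genes, where 0.495% of all genes did so with 500 on at least 1 tumor. Star, which brings cholesterol into the mitochondrion, did not follow: it had 915, 722 and 507. Cyp17a1, which makes androgens, was dim in all 3 with 289.9, 101 and 29.4.

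The Hedgehog receptor gene Ptch1 gave the brightest signal of the theca and interstitial list after Hsd3b1 and varied between the tumors. It had 6059.7, 17963 and 27114, a range of 2.16; without tumor 1 the range was 0.59. Of its 2 other probe sets at 500 or more, both had tumor 1 lowest but only 1 had tumor 3 highest, and their ranges were 0.45 and 1.85. Under scaling to the hybridisation controls the range of Ptch1 was 1.31, and with the mean over its probe sets 1.45. Gli1, a transcription factor that Hedgehog signalling induces as it does Ptch1, had 800.3, 636 and 477, and thus did not share the low value of tumor 1. Gli2 had 1551, 2025 and 894, the signal transducer gene Smo 3572, 3112 and 3041 and the ligand gene Dhh the 3 values given above. Cdon, a coreceptor, had 694, 1483 and 3152 and Hhip, which binds the ligands, 247, 84.7 and 474. Of 14 measured Hedgehog genes, 3 (Ptch1, Ihh and Cdon) had a range of at least 2, where 0.907% of all genes did. The number was 0 without tumor 1 and 0 without tumor 3.

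The Smads carry the signals of the TGF-beta superfamily, and 35 of its 43 measured genes had 500 on at least 1 tumor (44% of all genes). Of the 43, 8 also had a range of at least 1 (5.06% of all genes) and 2 a range of at least 2 (0.907%). At least 500 on all 3 tumors was reached by 28 (35.7% of all genes). Smad4, the common partner of the receptor Smads, had 6269, 7419.8 and 8630.1. The probe sets of the mutated genes gave clear signals for Smad1 (2076, 2861 and 2354) and Smad5 (2436, 2816 and 3108) and dim ones for Smad9 (27.0, 71.3 and 14.2); where these probes lie relative to the mutated part is not known here, so these signals do not check the mutation. The receptor genes Bmpr2 (10931, 10176 and 10202) and Bmpr1b (4105, 5789 and 4792) were bright. The 4 Id genes, which bone morphogenetic proteins induce, were led by Id2 with 2234, 1300.0 and 1607. Id1 had 616, 662 and 521, Id3 1348, 887 and 819 and Id4 367, 228 and 129. Inhba and Gdf10 were the 2 members with a range of at least 2; Gdf10, a ligand of the family, had 1347, 477 and 119.

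Connective tissue genes were bright in every tumor. All 28 measured genes of a fibroblast and matrix list had at least 100 on all 3 tumors (58% of all genes). At least 500 was reached by 22 (35.7%) and at least 5000 by 10 (2.94%), and the median member lay in the top 6.42% of genes. Sparc, a matrix protein that binds collagen, had 20606, 31731 and 26688, and its other probe set that reached 500 had the same highest but another lowest tumor. The collagen gene Col3a1 had 14776, 18286 and 17163, and the intermediate filament gene Vim, which is not limited to fibroblasts, had 11181, 17748 and 14229. Decorin, Dcn, had 13476, 15555 and 7229.8. Lum, another small proteoglycan, had 9754, 9409.8 and 3177 and Col1a1 3848, 5891 and 1586, both lowest in tumor 3; the other probe set of Col1a1 gave the same order with a range of 0.60. No member had a range of at least 2, although 13 of 28 had one of at least 1; among the genes with 500 on at least 1 tumor, 11.5% had such a range.

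The contractile genes described here were lowest in tumor 3. Acta2, smooth muscle actin, had 15420.0, 17031 and 8102. Myh11, the smooth muscle myosin heavy chain, had 2616, 1162 and 635, and Des, an intermediate filament of muscle, had 749.6, 609 and 159.5. Tumor 3 was lowest in 15 of 19 genes of a smooth muscle and pericyte list and highest in none. Its median difference from the mean of the other tumors was -0.92 on the log2 scale. Over all 18193 genes tumor 3 was lowest in 6854 and highest in 6310, with a median of -0.03. The pericyte genes Rgs5 (1139, 4979 and 4070.4), Kcnj8 (223, 979.8 and 316) and Abcc9 (502, 1879.9 and 429) had their highest signal in tumor 2. So did 11 of the 19 genes, among them Acta2, against 6257 of all 18193 genes. For Rgs5 only 1 of its 3 other probe sets at 500 or more had tumor 2 highest, and their ranges were 0.40 to 2.96. The median difference of tumor 2 was 0.61. Tumor 3 was also at least 2-fold below both others in 2 of the 19, where 0.748% of all genes were.

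Endothelial genes were highest in tumor 2. Cdh5, the cadherin of vessel walls, had 800.0, 1717 and 296, and Vwf, von Willebrand factor, had 267, 1116 and 354. Sox18, a factor of vessel development, had 2085, 5285 and 3401, and Cd34 had 1096, 2369.7 and 1073. Tumor 2 was highest in 17 of 22 measured genes, against 6257 of all 18193 genes. Its median difference from the mean of the others was 0.78 on the log2 scale (0.03 over all genes). It lay at least 2-fold above both others in 5 of the 22, where 0.379% of all genes did. Exceptions included Plvap (332, 191 and 719), Tek (212, 186 and 264) and the lymphatic gene Lyve1 (288, 260.1 and 299). The sum of signals over the list was 11050 in tumor 1, 21991 in tumor 2 and 13031 in tumor 3.

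Genes that hypoxia induces were highest in the same tumor. Egln3, a prolyl hydroxylase that marks hypoxia-inducible factor for decay, had 52.2, 1026 and 153, a range of 3.65, and its other probe set that reached 500 had the same order. Ldha, lactate dehydrogenase A, had 5899, 13883 and 6849, and Pgk1, phosphoglycerate kinase, had 3928, 9910.4 and 5828. The mitophagy receptor gene Bnip3 had 2690.1, 5272 and 2473, the glucose transporter gene Slc2a1 773, 1785 and 1179 and Vegfa, the growth factor of vessels, 404, 1338 and 457. Tumor 2 was highest in 15 of 18 measured genes, with a median difference of 0.91, and was lowest in 1, Ddit4 (1364, 1199.7 and 1330.2). Over all 18193 genes tumor 2 was highest in 6257 and lowest in 4841. Hk2 and Higd1a were highest in tumor 3. Tumor 1 lay at least 2-fold below both others in 2 of the 18, where 0.33% of all genes did. Summed signals were 29878, 57154 and 35807, while the wild-type pools summed to between 59877 and 76881.

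Hypoxia-inducible factor binds DNA at a short core, and the promoters of Egln3, Ldha, Pgk1 and Bnip3 are shown because these genes were highest in tumor 2. Each sequence holds the 250 bases before the RefSeq gene start, 5′ to 3′ on the gene's strand, in assembly GRCm38.p6, with every ACGTG and its reverse complement CACGT in capitals. Egln3 lies at chr12:54203875-54204124 on the minus strand, Ldha (the first of 2 listed starts) at chr7:46845554-46845803 on the plus strand, Pgk1 at chrX:106186850-106187099 on the plus strand and Bnip3 at chr7:138909507-138909756 on the minus strand.
Egln3: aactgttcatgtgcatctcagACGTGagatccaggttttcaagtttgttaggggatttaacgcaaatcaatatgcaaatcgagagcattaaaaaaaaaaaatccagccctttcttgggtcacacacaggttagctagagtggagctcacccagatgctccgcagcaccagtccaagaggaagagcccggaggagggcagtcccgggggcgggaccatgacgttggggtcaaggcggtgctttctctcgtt
Ldha: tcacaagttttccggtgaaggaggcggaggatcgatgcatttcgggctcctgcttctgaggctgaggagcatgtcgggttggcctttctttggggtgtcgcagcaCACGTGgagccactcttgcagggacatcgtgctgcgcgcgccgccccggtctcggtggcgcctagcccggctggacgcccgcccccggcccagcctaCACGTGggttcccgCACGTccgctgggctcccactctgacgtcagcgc
Pgk1: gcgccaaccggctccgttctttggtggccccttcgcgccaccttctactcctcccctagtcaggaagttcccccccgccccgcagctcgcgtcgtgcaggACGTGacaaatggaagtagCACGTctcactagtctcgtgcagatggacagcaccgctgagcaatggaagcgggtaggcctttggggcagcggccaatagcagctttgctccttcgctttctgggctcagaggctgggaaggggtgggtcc
Bnip3: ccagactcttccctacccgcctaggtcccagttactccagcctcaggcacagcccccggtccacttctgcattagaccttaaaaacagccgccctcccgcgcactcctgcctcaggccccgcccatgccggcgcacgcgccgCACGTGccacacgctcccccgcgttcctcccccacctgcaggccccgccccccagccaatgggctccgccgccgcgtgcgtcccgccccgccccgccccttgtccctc

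The search counted overlapping matches on both strands, so a CACGTG counts under both motifs: Ldha has 5 matches, Pgk1 and Bnip3 2 each and Egln3 1. The motif occurs in 5444 of 32851 promoters of this length (16.6%) and in 11 of the 17 genes of the hypoxia list that have an entry (64.7%). The window of Vegfa holds none. The list was made of known hypoxia genes, so this share describes the list and not the tumors; a match is a run of letters and not a bound site.

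Macrophage genes had a median range close to that of all genes, but above that of the genes that reached 500. Lyz2, lysozyme, had 4739, 5619.7 and 4562, and Csf1r, the receptor on which macrophages depend, had 2412, 1466 and 1889.7. The complement genes C1qa (2486, 1479 and 1614), C1qb (2214, 1605 and 1720.0) and C1qc (1518, 1049.5 and 996) were highest in tumor 1, although the 2 other probe sets of C1qb at 500 or more had another tumor highest. No member of 25 had a range of at least 2 with 500 on at least 1 tumor, 1 had a range of at least 1, and the median range was 0.54. Over all genes these shares were 0.907% and 5.06% and the median range was 0.55. Of the 25 members, 18 reached 500, and over all genes that did so the median range was 0.41. Summed signals of the list were 24698, 21649 and 21429, and those of the wild-type pools lay between 4790 and 5911.

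Genes of antigen presentation were highest in tumor 1. Cd74, the invariant chain that loads MHC class II molecules, had 7654, 1447 and 1077, a range of 2.79. The class II genes H2-Aa (5608, 1333 and 1527), H2-Eb1 (4118, 781 and 720.3) and H2-Ab1 (2418, 712 and 615) showed the same tumor above the others, as did the 2 other probe sets at 500 or more of H2-Aa and of H2-Ab1. Tumor 1 lay at least 2-fold above both others in these 4 of 11 measured genes, where 0.445% of all genes did; without tumor 1, 0 members had a range of at least 2. Ciita, the regulator of class II genes, had only 73.0, 107 and 92.5, and the dendritic genes Itgax, Flt3, Xcr1 and Ccr7 were dim, with Itgax at 158, 129 and 36.7 and Ccr7 at 8.23, 9.16 and 8.84.

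Class II promoters carry a conserved Y box, and those of H2-Aa and H2-Eb1 are shown because these genes had the same tumor highest. The sequences are given as above, with ATTGG and its reverse complement CCAAT in capitals. H2-Aa lies at chr17:34287824-34288073 on the minus strand and H2-Eb1 at chr17:34305617-34305866 on the plus strand.
H2-Aa: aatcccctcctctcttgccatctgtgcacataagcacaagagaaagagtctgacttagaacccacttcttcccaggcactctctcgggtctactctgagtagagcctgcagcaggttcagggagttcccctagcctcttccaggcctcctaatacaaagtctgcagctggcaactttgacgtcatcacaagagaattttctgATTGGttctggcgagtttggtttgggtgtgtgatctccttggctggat
H2-Eb1: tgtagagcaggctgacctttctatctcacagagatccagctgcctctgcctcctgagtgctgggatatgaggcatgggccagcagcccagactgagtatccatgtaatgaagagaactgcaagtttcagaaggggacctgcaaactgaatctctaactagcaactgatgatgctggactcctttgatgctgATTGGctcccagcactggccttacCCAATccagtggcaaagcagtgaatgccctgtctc

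ATTGG or CCAAT occurs in 11120 of 32851 promoters (33.8%) and in 5 of 7 genes of the class II and dendritic list with an entry (71.4%), so the letters alone are common. They name no bound factor.

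Immunoglobulin genes showed the same tumor highest and were among the genes with the widest ranges. Ighm, the heavy chain of IgM, had 8275, 134 and 1209, a range of 5.65; its 6 other probe sets at 500 or more all had tumor 1 highest and 4 of them tumor 2 lowest. The light chain genes Igk (2059, 17.6 and 334) and Igkv8-30 (13342, 348 and 4108) had the same order, as did Jchain, which joins IgM and IgA into polymers, with 4169.9, 181 and 679. Igha, the heavy chain of IgA, had 4899, 576 and 803. Immunoglobulin probe sets can cross-hybridise, so these are not separate counts of separate chains. Of 16 measured genes of a B and plasma cell list, 4 had a range of at least 2 with 500 on at least 1 tumor, where 0.907% of all genes did. Without tumor 1, 1 of the 4 was left. Igk, with 17.6 and 334 in tumors 2 and 3, then lies below the minimum of 500 and is not counted, although tumor 3 stays above tumor 2.

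Surface markers of B cells were dim in all 3 tumors. Cd79a had 148, 5.01 and 62.2, Cd79b 101, 6.26 and 56.3 and Ms4a1, which encodes CD20, 131, 41.9 and 34.5. The secretory genes Xbp1 (10484, 13338 and 13656) and Sdc1 (5484, 7476 and 6317), which plasma cells share with other cells, were bright in all tumors. On these probe sets tumor 1 was lowest. Of the other probe sets at 500 or more, 1 of 2 for Xbp1 and 0 of 3 for Sdc1 had tumor 1 lowest. The wild-type values of Ighm lay between 23.1 and 57.6. Cd79a and Mzb1 also had ranges of at least 2 (2.28 and 2.02), with tumor 1 highest and tumor 2 lowest, but did not reach 500. The part of B or plasma cell numbers in these ranges was not tested.

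No gene of 16 on a T and NK cell list reached 500 on any tumor, where 44% of all genes did, and Cd3e had 59.8, 61.0 and 18.4. The neutrophil genes S100a8 (94.3, 105 and 1124) and S100a9 (47.9, 95.7 and 651) were highest in tumor 3, whereas Ltf, lactoferrin, had 233, 996 and 128 and Kit, the receptor of mast cells, oocytes and other cells, 187, 675 and 175. These 4 of 15 neutrophil and mast cell genes reached 500, against 44% of all genes. Mast cell protease genes were above 100 in tumor 1: Tpsb2 had 355, 3.38 and 19.9, Mcpt4 267, 4.71 and 15.6 and Cma1 326, 57.8 and 97.2. Cpa3, carboxypeptidase A3 of mast cells, had 357, 109.9 and 46.4. Tpsb2, Mcpt4, Cma1 and Cpa3 did not reach 500, so they stand outside the counts of wide genes.

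**Figure D2:**
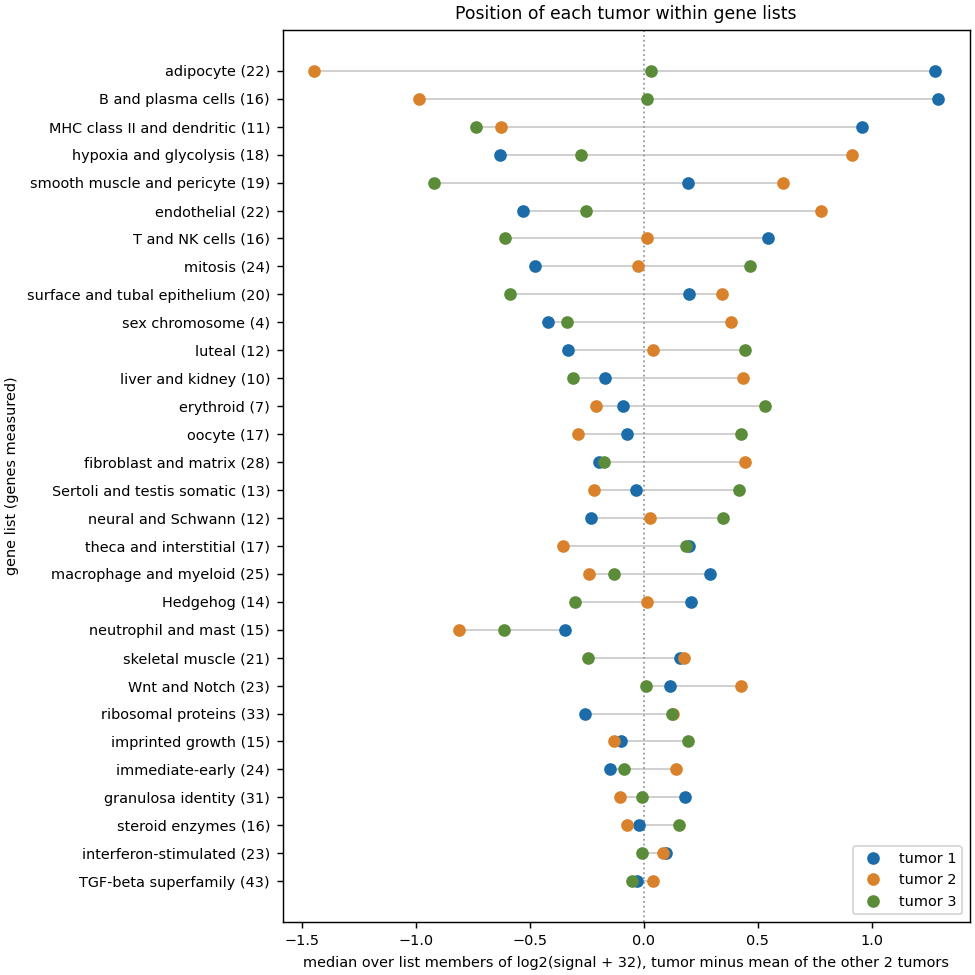
Median over the members of each gene list (rows, measured genes in brackets) of log2(signal + 32) in a tumor minus the mean of the other 2 tumors (horizontal axis); blue, orange and green points are tumors 1, 2 and 3. The adipocyte and B and plasma cell lists spread widest with tumor 1 high and tumor 2 low, hypoxia and endothelial lists place tumor 2 highest, and the smooth muscle list places tumor 3 lowest.

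The widest differences of all came from genes of fat cells, which were dimmest in tumor 2. Car3, a carbonic anhydrase of adipocytes and muscle, had 22637, 119.6 and 29986, a range of 7.63, the largest of all genes that reached 500. Its other probe set that reached 500 also had tumor 2 lowest, with a range of 6.45. Adipoq, the hormone adiponectin, had 8447, 52.6 and 8409.7, and Fabp4, a fatty acid binding protein, had 12178, 746 and 18320.2. Retn, resistin, had 1913, 14.0 and 1450.3 and Cidec, a lipid droplet protein, 984, 2.61 and 851. In each of these 5 genes tumors 1 and 3 lay within 2-fold of each other and tumor 2 far below.

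The adipocyte list shared the low place of tumor 2 with exceptions, but tumors 1 and 3 were not alike across it. Tumor 2 was lowest in 18 of 22 measured genes, against 4841 of all 18193 genes. Its median difference from the mean of the others was -1.45 on the log2 scale. Tumor 2 lay at least 2-fold below both others in 8 of the 22, where 0.319% of all genes did. Tumor 1 was highest in 17 of the 22, with a median difference of 1.28, and tumor 3 in 3, with 0.03. Of the 22, 9 had a range of at least 2, where 0.907% of all genes did. The number was 6 without tumor 1 and 0 without tumor 2. Summed signals were 80968, 19334 and 80448, and the wild-type pools summed to between 25535 and 28026. Scd1, a desaturase, had 5305, 292 and 2022, and Lpl, lipoprotein lipase, had 4803, 1112 and 2899.8. The members with the smallest ranges at 500 or more were Cd36 with 3848, 4484 and 3980.3 and Acly with 6040.0, 5675 and 4831. Pparg, the regulator of fat cell differentiation, went against the list with 1082, 1435 and 490.3, and Ucp1, the marker of brown fat, had 14.2, 12.6 and 12.9.

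Genes of skeletal muscle, which also makes Car3, were dim. Of 21 measured genes of a skeletal muscle list, 13 lay below 100 on all 3 tumors, against 31.5% of all genes, and Ckm, muscle creatine kinase, had 141, 37.9 and 105. The members at 500 or more were Tpm2, a tropomyosin also of smooth muscle, with 3907, 3318 and 2198, and Klhl40 with 3645, 5170.3 and 2046. Neither had tumor 2 lowest.

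A cluster of granzyme genes and a prolactin relative reached 500 in tumor 2 only. Gzmg had 1.18, 774 and 8.02, Gzme 4.51, 553 and 2.34, Gzmf 6.98, 576 and 58.7 and Gzmd 16.1, 630.3 and 23.6. These serine proteases are known from lymphocytes and from the pregnant uterus. The lymphocyte granzymes Gzma (64.8, 248 and 32.8) and Gzmb (44.9, 121 and 29.4) also had their highest signal in tumor 2 but stayed below 500. Prl8a2, a prolactin-related protein of the decidua, had 27.7, 1117 and 378. The promoter entries of Gzmd, Gzme, Gzmf and Gzmg lie within 91082 bases of chromosome 14. These 4 genes are close copies of each other, so 1 transcript could give signal on several of their probe sets.

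The 4 promoters are alike too, and are shown because the 4 genes had the same tumor highest. Sequences are as above, and capitals mark a run of 36 bases identical in all 4. Gzmd lies at chr14:56132594-56132843, Gzme at chr14:56120626-56120875, Gzmf at chr14:56211408-56211657 and Gzmg at chr14:56159580-56159829, all on the minus strand.
Gzmd: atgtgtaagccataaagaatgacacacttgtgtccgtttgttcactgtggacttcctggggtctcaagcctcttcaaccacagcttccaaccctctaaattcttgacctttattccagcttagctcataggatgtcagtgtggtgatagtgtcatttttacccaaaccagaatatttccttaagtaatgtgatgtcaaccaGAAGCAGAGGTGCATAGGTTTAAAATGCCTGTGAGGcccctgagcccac
Gzme: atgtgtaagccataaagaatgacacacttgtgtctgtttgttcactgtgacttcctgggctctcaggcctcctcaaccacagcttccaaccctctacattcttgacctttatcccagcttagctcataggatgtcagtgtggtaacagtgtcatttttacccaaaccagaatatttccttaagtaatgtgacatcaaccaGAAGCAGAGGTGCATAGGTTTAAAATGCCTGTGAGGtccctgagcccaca
Gzmf: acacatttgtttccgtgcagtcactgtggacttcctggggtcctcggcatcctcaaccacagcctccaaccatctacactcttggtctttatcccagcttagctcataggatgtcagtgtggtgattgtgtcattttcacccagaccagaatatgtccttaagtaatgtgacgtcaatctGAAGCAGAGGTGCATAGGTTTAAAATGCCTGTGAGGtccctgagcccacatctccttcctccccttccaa
Gzmg: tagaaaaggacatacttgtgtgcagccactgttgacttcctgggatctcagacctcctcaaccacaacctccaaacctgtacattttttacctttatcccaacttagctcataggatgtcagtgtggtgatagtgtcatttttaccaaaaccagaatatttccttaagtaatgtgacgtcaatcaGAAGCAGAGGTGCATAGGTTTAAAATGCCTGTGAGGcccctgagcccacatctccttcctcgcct

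Between pairs, the longest identical run was 36 to 51 bases. These are promoter letters and not those of the array probes, whose positions were not used here.

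Counted over all genes, large differences between the tumors were rare. Of 7996 genes with 500 on at least 1 tumor, 921 had a range of at least 1 (5.06% of all 18193 genes) and 165 of at least 2 (0.907%); of the 7996 these were 11.5% and 2.06%, and their median range was 0.41. The 165 were 87 without tumor 1, 85 without tumor 2 and 68 without tumor 3. Tumor 1 was highest in 64, tumor 2 in 49 and tumor 3 in 52, against 2437, 2266 and 3293 of the 7996. Measured the same way over the 3 wild-type pools, 12 of 7584 genes had a range of at least 2, and the median range was 0.31. Each pool mixed 2 to 3 females, whereas the labels do not say that tumors were pooled.

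Genes with a low mean log2 signal made up much of the 165. Means here are those of log2(signal + 32), turned back to a signal. Among genes that reached 500 on at least 1 tumor but had such a mean under 500, 76 of 735 had a range of at least 2. Their median range was 0.80. Such genes passed the minimum only through their brighter tumors, so the selection itself favours a wide range. A low tumor also pulls this mean down: Retn, with 1913, 14.0 and 1450.3, is among them. At a mean of 5000 or more the median range was 0.37, and 5 of 678 genes had a range of at least 2. The lowest tumor lay below 100 for 46 of the 165. The minimum of 500 also sets who is counted: Coch was just inside with 507, 19.7 and 139.6, and Slc38a4 just outside with 59.6, 367 and 498. Across genes that reached 500, Pearson's r of log2(signal + 32) was 0.92 between tumors 1 and 2 and 0.90 for both pairs with tumor 3; genes are not independent replicates, so no p is given.

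**Figure D3:**
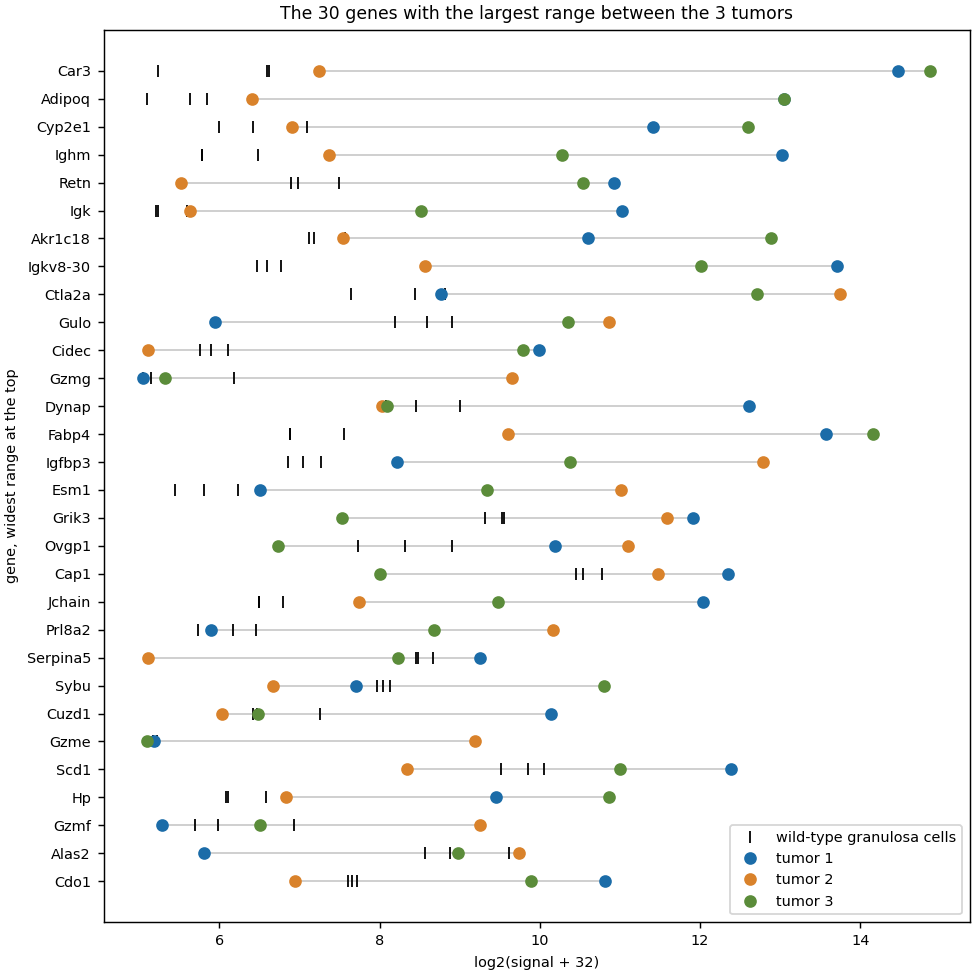
Signals as log2(signal + 32) (horizontal axis) of the 30 genes with the largest range between the 3 tumors (rows, widest at the top); blue, orange and green points are tumors 1, 2 and 3, black ticks the 3 wild-type pools. Car3 heads the plot with a range of 7.63 and Cdo1 closes it with 3.87; tumor 2 is the lowest point in 18 of the 30 rows.

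Of the 30 widest genes, tumor 1 was highest in 14, tumor 2 in 10 and tumor 3 in 6. Tumor 2 was lowest in 18 of the 30, against 2153 of the 7996 genes that reached 500. Besides the fat, immunoglobulin, granzyme and steroid genes, several metabolic genes stood among the 30. Cyp2e1, a cytochrome P450 of liver and fat, had 2701, 88.3 and 6177 and Cdo1, cysteine dioxygenase, 1762, 91.1 and 917; Hp, haptoglobin, had 667, 82.2 and 1834. All 3 were lowest in tumor 2, as were the fat genes. Gulo, the enzyme that completes vitamin C synthesis, had 29.6, 1824 and 1279.6, and Alas2, which starts heme synthesis in red cells, had 24.0, 821 and 474; both were lowest in tumor 1. The globin genes did not follow Alas2: Hbb-b2 had 184, 165 and 227 and Hba-a1 49.5, 5.81 and 48.4.

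Genes high in tumor 2 and low in tumor 1 formed another part of the 30. Ctla2a, an inhibitor of cysteine proteases, had 404, 13727 and 6693, a range of 4.98. Igfbp3, which binds insulin-like growth factors, had 267, 7007 and 1293, and its other probe set at 500 or more had the same order. Esm1, a proteoglycan secreted by endothelial cells, had 59.2, 2036 and 614. Outside the 30, Apln (177, 1826 and 327), Cxcr4 (192, 1261 and 230.4) and Notch4 (131, 845 and 115) were also highest in tumor 2. Aplnr, the receptor for the product of Apln, was lowest there with 1079, 291 and 2175.

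The remaining genes of the 30 were bright in one or a pair of tumors. Dynap had 6233, 229 and 241, so tumor 1 stood alone. Cap1, which binds actin and adenylyl cyclase, had 5178, 2822 and 226, and its other probe set at 500 or more gave the same order with a range of 4.46. Grik3, a glutamate receptor subunit, had 3838, 3059 and 154 and Ovgp1, oviductin, the widest gene of the surface and tubal epithelium list, 1139.8, 2159 and 74.4. These 3 were lowest in tumor 3. Sybu, a kinesin adaptor, had 177, 70.0 and 1749 and stood out in tumor 3; Cuzd1 (1098, 33.8 and 57.8) and Serpina5 (577, 2.43 and 268), a protease inhibitor, were highest in tumor 1. The next gene after the 30 was Tmem182, with 3687, 1590.3 and 226.

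Tumor 3 also had wide genes of its own just outside the 30. Col8a1, a collagen chain, had 368, 298 and 4109, and Stc1, stanniocalcin, had 885, 614 and 7149. Rarres2, the chemokine chemerin, had 23049, 32184 and 3805. Tumor 3 was the highest in the first pair and the lowest in the last.

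**Figure D4:**
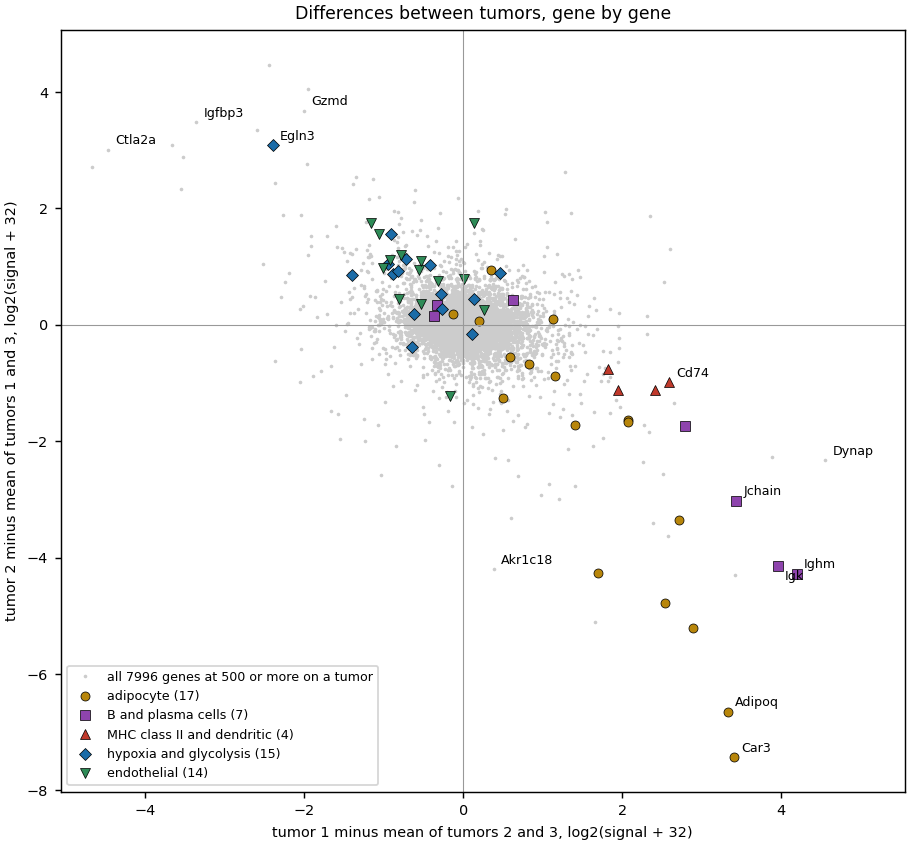
Each point is one of the 7996 genes with a signal of 500 or more on at least 1 tumor; the horizontal axis is tumor 1 minus the mean of tumors 2 and 3, the vertical axis tumor 2 minus the mean of tumors 1 and 3, both in log2(signal + 32). Most genes lie near the centre; adipocyte genes reach down, immunoglobulin and class II genes reach right, and hypoxia and endothelial genes reach up and left.

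Genes of cell division were mostly highest in tumor 3. Mki67, the proliferation antigen, had 2451, 3119 and 3838, and Top2a, topoisomerase II alpha, had 2620.1, 3646 and 4233. Cdc20, an activator of the anaphase complex, had 3373, 4282 and 6089. Tumor 3 was highest in 22 of 24 measured genes, with a median difference of 0.47, and tumor 1 was lowest in 20. Over all 18193 genes tumor 3 was highest in 6310 and tumor 1 lowest in 6498. Of the 24, 3 had a range of at least 1 (5.06% of all genes) but none of at least 2 (0.907%). The median range was 0.65, where it was 0.55 over all genes and 0.41 over those that reached 500. Ribosomal protein genes were lowest in tumor 1 too, in 28 of 33. The Actb ratio and the hybridisation controls named above were likewise lowest in tumor 1 and highest in tumor 3. The Gapdh ratio was also lowest in tumor 1 but highest in tumor 2. The part of these measures in the shifts was not tested.

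Stress and interferon genes showed no common order. The connective tissue growth factor gene Ccn2 had 7176, 17453 and 16755, and Egr1 and Fos, early response genes, had 2794, 3806 and 3341 and 1004, 1289.8 and 2136. Of 24 immediate-early genes, 15 had at least 500 on all 3 tumors (35.7% of all genes), 7 had a range of at least 1 (5.06%) and none had a range of at least 2 (0.907%). Among 23 interferon-stimulated genes, Bst2 was brightest with 4934, 5879 and 6217, and Ifi27l2a, the one member with a range of at least 2, had 2009.9, 306 and 3157.

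Genes of the Wnt and Notch pathways varied singly. Sfrp1 and Sfrp4, which bind Wnt ligands, were highest in different tumors, with 1996, 207 and 714 and 364, 1531 and 2202. Heyl, a Notch target, had 4474, 3774 and 926 and was lowest in tumor 3. These 3 and Rspo1 were the 4 of 23 measured genes with a range of at least 2, where 0.907% of all genes had one. There were 1, 2 and 1 without tumors 1, 2 and 3. Imprinted growth genes included bright and even members, Gnas (19129, 20680.3 and 17992) and Plagl1 (10263, 10556 and 11437), while Igf2 was dim with 412, 223 and 165.

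Lists of other tissues held few bright genes. Of 17 oocyte genes, 12 lay below 100 on all 3 tumors, against 31.5% of all genes, and Gdf9, the oocyte's growth factor, had 112, 97.2 and 223. On a liver and kidney list Alb had 19.2, 15.4 and 93.1, and Apoa1 was the exception with 7083, 10395 and 7850.2. Keratin genes of surface epithelium were moderate: Krt8 had 568, 639.6 and 612 and Krt19 469.8, 926 and 156, the latter lowest in tumor 3. Of 12 neural and Schwann cell genes, 2 reached 500, against 44% of all genes. They were Pmp22 (4496, 2065 and 4088), a myelin protein that other cells also make, and Mbp (691, 399 and 543).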

How the data were processed

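RNA of 6 mouse samples was read on 1 Affymetrix array each. The deposited values are linear intensities, 1 signal per probe set and array, made by the authors with GCOS for the tumor arrays and MAS5 for the wild-type arrays, per the submitters' processing notes. Each array was set again to a trimmed mean of 500 (2% of values left out at each end). The platform annotation gave 1 symbol to 34945 of 45101 probe sets, several to 932 and none to 9160, beside 64 control probe sets; they name 18193 genes. Of the named probe sets, 34741 had an Entrez identifier found in RefSeq's GRCm38.p6 gene table, which changed 0 symbols. A gene is shown by its probe set with the highest mean tumor signal.

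Counts and medians describe the 3 tumors and nothing was tested; the number of arrays limits the precision. The text names the 30 brightest genes, the 30 widest with 500 on at least 1 tumor, 3 bright members and the widest member of each of 30 lists (571 of 646 entries measured), the 5 steadiest genes above 5000 and the markers Ptch1, Slc18a2, Foxl2, Car3 and Ighm; other names were chosen after their values were seen. Ribosomal genes of the brightest 30 are given as a count. Members and lists were chosen with earlier results of these data known. Promoters came from a RefSeq table of assembly GRCm38.p6 by symbol. The alternatives changed the pseudocount, signal minimum, probe set and scaling, or left out a tumor. The ranking was tested on simulated data. Python 3.11.15, pandas 2.3.3, numpy 2.4.6 and matplotlib 3.10.9 were used.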

Additional observations from a re-analysis of the deposited data

How the results depend on the processing

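The number of genes with a range of at least 2 depended on the signal minimum and on the scaling: 165 as reported, 286 with a minimum of 200 on at least 1 tumor, 367 with no minimum, 32 with 500 on all 3 tumors and 360 with scaling to the hybridisation controls. That scaling shifted the median of all genes by 0.45, -0.12 and -0.32 in tumors 1, 2 and 3. With 1 tumor left out, the number was 68 to 87. Of the 30 widest genes, 1 was among the widest 30 with 500 required on all 3 tumors, since most of them fall under 500 in a tumor, and 10 to 24 were with 1 tumor left out.

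The directions of the 7 list shifts in the text held under every setting in which they were computed. They were not computed for a changed signal minimum or with the tumor concerned left out. Each shift is taken relative to all genes, so rescaling a whole array largely cancels in it. Relative to all genes, the adipocyte shift of tumor 2 lay between -1.76 and -0.85 (log2), the B and plasma cell shift of tumor 1 between 0.80 and 2.19, its class II shift between 0.62 and 1.35, the hypoxia shift of tumor 2 between 0.69 and 1.02, its endothelial shift between 0.67 and 0.78, the smooth muscle shift of tumor 3 between -1.01 and -0.78 and its mitosis shift between 0.38 and 0.63. Of 1238 ranges of named genes under other settings, 1092 moved by less than the SD between the tumors. With 1 tumor left out, 312 of 468 did and 156 moved by more. For 3 values that split is fixed by arithmetic, so it does not measure how stable the ranges are. No paired analysis was possible because the results come from no test and use the tumor arrays only. Signals under about 100 are close to those of control probe sets without a transcript, so values below it have no order.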

Other observations

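Probe sets without a single gene symbol were not part of the descriptions above. Of 10092 such probe sets, 1121 had a signal of at least 500 on 1 or more tumors and 38 of these had a range of at least 2 between the tumors.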
